A study of Bos grunniens and Bos grunniens x Bos taurus with 12 samples.

Results

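The 8 genes described here, *HMGCS1*, *IDI1*, *FDPS*, *FDFT1*, *SQLE*, *LSS*, *CYP51A1* and *DHCR7*, encode enzymes that build cholesterol from acetyl-CoA. They were picked by symbol from 20965 genes in the deposited tables, and all 8 passed the filter on low counts in each comparison. Their translation levels were measured by Ribo-seq, in which fragments of mRNA shielded by translating ribosomes (ribosome footprints, RFs) are sequenced, in 12 testis libraries of 4 groups with 3 animals each. The groups were yaks (*Bos grunniens*) of 6 months, labelled juvenile, yaks of 18 months, labelled puberty, yaks of 4 years, labelled sexual maturity, and cattle–yaks, labelled with the same age of 4 years. The labels name no treatment and no engineered allele in any group. Cattle–yaks are hybrids of a Jersey cattle sire and a Gannan yak dam, and the males are sterile. The labels give castration as the way of collection for all animals, whereas the methods give it for cattle–yaks alone and euthanasia for yaks. If the methods hold, hybrid and way of collection cannot be told apart. Each library held RFs of whole testis tissue. A lower value can stand for fewer cells that use the gene or for fewer RFs per cell, and these cannot be told apart in bulk tissue. Nor was the mRNA level analysed here, so a translation level combines mRNA and ribosome loading.

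Cholesterol synthesis starts in the mevalonate pathway, in which acetyl-CoA is joined to HMG-CoA, reduced to mevalonate and turned into isoprene units. These units are joined to farnesyl diphosphate and squalene, squalene is oxidised and closed to lanosterol, and lanosterol is trimmed and reduced to cholesterol. Most enzymes of the route are targets of the transcription factor SREBP2, which responds to low sterol. In the testis, Leydig cells use cholesterol to make testosterone, and germ cells and Sertoli cells also make sterols. The product of CYP51A1 is a sterol known for activating meiosis in oocytes, and this enzyme is known to be present in spermatids of other mammals.

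Total counts per library were 25816963 to 37167651 in yaks of 6 months, 21309151 to 24542362 at 18 months, 16304058 to 17862516 at 4 years and 38437889 to 52616039 in cattle–yaks. One library stood apart from its group. Replicate 2 of the 18-month yaks had 6016 FPKM of *TNP1*, which encodes a protein of spermatid chromatin, against 0 and 9.72 in the other two libraries of that age. Pearson's correlation of log2 FPKM between libraries of that group was 0.876 to 0.974, against at least 0.982 in each other group. The calls of the members in 18-month yaks and the *CYP51A1* share at that age are therefore also given without this library. A further difference lay in the makeup of the libraries, since the 20 most abundant genes held 25.4 to 28.3% of all counts in yaks of 6 months and 10.6 to 13.9% in the 4-year groups. FPKM, which the authors scaled to library totals and gene length, is used to compare levels between genes. Fold changes were obtained from counts scaled by TMM, a method that takes most genes as unchanged, and were thus larger for a fall from 6 months than the ratio of FPKM values. With library totals in place of TMM, the median log2 fold change of all genes moved from 0.08 to 0.64 for 4 years over 6 months and from −0.02 to 0.52 for cattle–yak over 6 months. Relative to that median, the members' median was 2.12 lower with TMM and 2.10 lower with library totals in the first comparison.

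All 8 enzymes had their highest mean translation level in yaks of 6 months. A gene was counted as a differentially translated gene (DTG) if its adjusted p was below 0.05 and its log2 fold change was at least 1 in either direction. In yaks of 4 years, 7 of the 8 were DTGs with lower levels than at 6 months and 0 with higher levels, where 24.7% of all 16133 tested genes were lower and 31% were higher. The exception was *CYP51A1*, with a log2 fold change of −0.65 ± 0.31 (SE, adjusted p = 0.0847). In cattle–yaks compared with yaks of 4 years, *HMGCS1*, *IDI1*, *LSS* and *DHCR7* were higher and *CYP51A1* was lower, while 17.1% of 16498 tested genes were higher and 27% were lower. In cattle–yaks compared with yaks of 6 months, 7 of the 8 were lower and 0 were higher, against 19.7% lower and 18.1% higher of 15571 tested genes. The median log2 fold change of the 8 genes was −2.05, 0.79 and −1.49 in these comparisons, and that of all tested genes was 0.08, −0.00 and −0.02. The comparisons share libraries, so they are not independent of each other. Scaling by library totals gave 3 lower members in place of 7 for cattle–yak over 6 months, namely *SQLE*, *CYP51A1* and *DHCR7*. For 4 years over 6 months it gave 5 in place of 7, and *FDPS* and *FDFT1* were no longer DTGs. It also moved the calls among all genes from 5009 higher and 3985 lower to 6596 and 2493 for 4 years over 6 months, and from 2823 and 3067 to 4867 and 1875 for cattle–yak over 6 months.

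**Figure D1:**
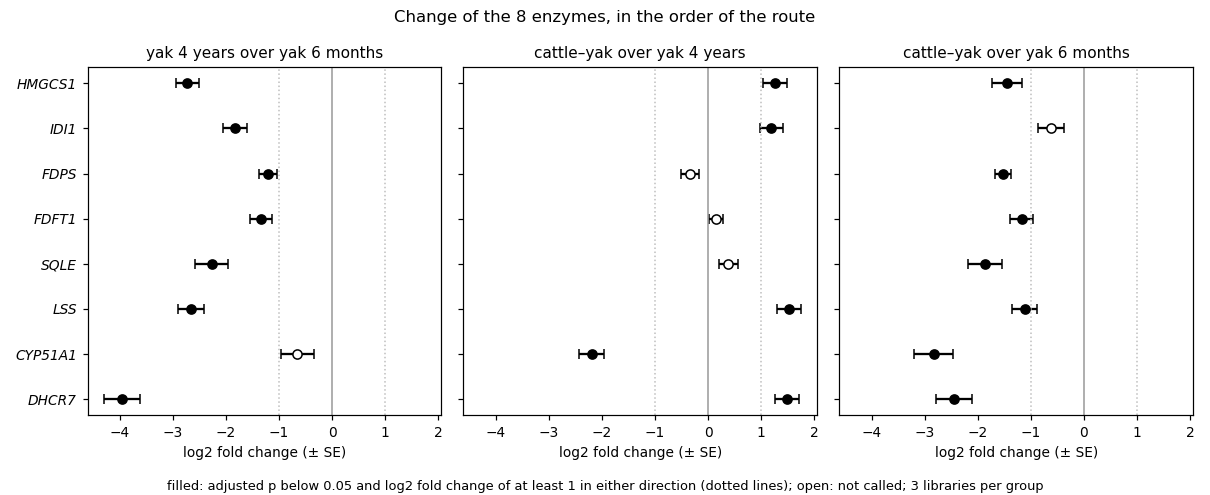
Log2 fold changes (horizontal axis, ± SE) of the 8 enzymes, listed from the first to the last step of the route, in 3 comparisons of groups of 3 libraries. Filled points are DTGs and open points are not. *CYP51A1* is the lowest point of the 8 in both comparisons with cattle–yak and the point nearest to 0 in yaks of 4 years over 6 months.

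No enzyme was a DTG in the comparisons with 18-month yaks when all libraries were used. For 18 months over 6 months, the log2 fold changes of the 8 genes ran from −2.44 to −0.97 and the adjusted p-values of the edgeR quasi-likelihood test from 0.0533 to 0.116. All 8 had an unadjusted p below 0.05, as had 25.8% of all genes. Here only 0.0202% of 14874 genes were higher DTGs and 0.0471% lower DTGs, so the test made almost no call on any gene. DESeq2 called 7 of the 8 as lower, all but *FDPS*, and 5.43% of all genes as lower and 7.13% as higher. Without replicate 2 of 18 months, edgeR called *HMGCS1* alone, with a log2 fold change of −2.63, where 0.279% of all genes were lower. Without replicate 1 it called 7 members, all but *CYP51A1*, and 8.08% of all genes as lower and 8.7% as higher. For 4 years over 18 months, edgeR called 0 of the 8, where 0% of 16175 genes were higher and 0.0371% lower. An unadjusted p below 0.05 was found for 4 of the 8 and for 35.4% of all genes. DESeq2 called *LSS* and *DHCR7* as lower, with 14.2% of all genes lower and 12.9% higher. Without the 18-month replicate 2, *LSS* and *DHCR7* were lower DTGs, with −1.23 and −2.21, and *CYP51A1* was a higher DTG, with 1.30. In that fit 18.5% of all genes were lower and 26.1% higher, so these counts of members were near the background. For cattle–yak over 18 months, edgeR called 0 of the 8, where 3.45% of 15702 genes were higher and 2.34% lower. An unadjusted p below 0.05 was found for 3 of the 8 and for 30.3% of all genes. DESeq2 called *HMGCS1* as higher and *CYP51A1* as lower, with 6.25% of all genes higher and 9.04% lower. Without the 18-month replicate 2, edgeR called *HMGCS1* as higher, with 1.19, where 7.22% of all genes were higher and 8.04% lower.

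*HMGCS1* (ENSBGRG00000015970) joins acetyl units to HMG-CoA and thus opens the mevalonate pathway. Its FPKM was 333, 266 and 231 in replicates 1 to 3 of the 6-month yaks and 42.2, 87.6 and 72.0 at 18 months. It was 58.8, 61.1 and 68.9 in yaks of 4 years and 206, 126 and 116 in cattle–yaks. The 6-month libraries stood above all others and the cattle–yak libraries above both older yak groups, without overlap. *HMGCS1* fell by 2.72 ± 0.22 on the log2 scale from 6 months to 4 years (adjusted p = 6.88e-06) and was 1.26 ± 0.23 higher in cattle–yaks than in yaks of 4 years (adjusted p = 0.00153). Cattle–yak replicate 1 was the highest of its group, and without it the difference was 0.94, below the fold required of a DTG. Against 6 months, cattle–yaks had a log2 fold change of −1.45 ± 0.28 (adjusted p = 0.00262). Yaks of 18 months and of 4 years, its lowest groups, differed by −0.25 ± 0.22 (adjusted p = 0.401) with overlapping libraries.

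*IDI1* (ENSBGRG00000004993) interconverts the isoprene units isopentenyl and dimethylallyl diphosphate. Its FPKM was 286, 290.5 and 195 in yaks of 6 months, 156, 157 and 166 at 18 months, 119, 117 and 88.2 at 4 years, and 300, 183 and 251 in cattle–yaks. The 6-month and cattle–yak libraries overlapped, and those of 18 months lay below them and above those of 4 years. *IDI1* fell by 1.83 ± 0.23 between 6 months and 4 years (log2, adjusted p = 9.71e-05). It was 1.19 ± 0.21 higher in cattle–yaks than in yaks of 4 years (adjusted p = 0.00134), and 0.999 higher, just short of the required fold, without cattle–yak replicate 1. *IDI1* was the only member that was no DTG in cattle–yaks against yaks of 6 months, with −0.62 ± 0.24 (adjusted p = 0.0549). In each cattle–yak library *IDI1* had the highest FPKM of the 8 enzymes.

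*FDPS* (ENSBGRG00000020272) assembles farnesyl diphosphate, the branch point from which prenyl groups, ubiquinone and dolichol are also made. Its FPKM was 160, 178 and 157 at 6 months, 109, 108 and 101 at 18 months, 120, 88.7 and 111 at 4 years, and 92.5, 70.8 and 84.4 in cattle–yaks. All older libraries lay below those of 6 months, and the cattle–yak libraries overlapped with those of 4 years. *FDPS* fell by 1.201 ± 0.171 from 6 months to 4 years (log2, adjusted p = 0.000215), the smallest of the 7 falls, and the log2 fold change was −0.63 with library totals. Cattle–yaks differed from 4-year yaks by −0.34 ± 0.17 (adjusted p = 0.102) and from 6-month yaks by −1.53 ± 0.15 (adjusted p = 9.65e-05).

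*FDFT1* (ENSBGRG00000002753), squalene synthase, commits farnesyl diphosphate to sterols. Its FPKM was 217, 164 and 161 at 6 months, 84.2, 112 and 101 at 18 months, 106, 100.5 and 99.6 at 4 years, and 135, 105 and 110.3 in cattle–yaks. The 6-month libraries were the highest, and the 3 older groups overlapped. *FDFT1* fell by 1.34 ± 0.20 from 6 months to 4 years (log2, adjusted p = 0.000311), with −0.75 when library totals were used. The difference of cattle–yaks from 4-year yaks was 0.15 ± 0.14 (adjusted p = 0.367).

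*SQLE* (ENSBGRG00000012556) oxidises squalene in a step that is a known point of control of the route. Its FPKM was 214, 151 and 98.7 at 6 months, 41.9, 66.1 and 44.4 at 18 months, 48.7, 45.3 and 56.6 at 4 years, and 73.4, 48.9 and 61.5 in cattle–yaks. As for *FDFT1*, only the 6-month libraries stood apart from the rest. *SQLE* fell by 2.27 ± 0.31 from 6 months to 4 years (log2, adjusted p = 0.000164). Cattle–yaks differed from yaks of 4 years by 0.38 ± 0.17 (adjusted p = 0.0817) and were lower than yaks of 6 months, with −1.87 ± 0.32 (adjusted p = 0.00153).

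*LSS* (ENSBGRG00000001100) closes oxidised squalene to lanosterol, the first sterol. Its FPKM was 53.5, 63.2 and 38.7 at 6 months, 21.5, 23.4 and 28.2 at 18 months, 13.3, 9.68 and 14.5 at 4 years, and 42.1, 26.7 and 36.5 in cattle–yaks. The 4-year yak libraries lay below all others, and the cattle–yak libraries overlapped with those of both younger yak groups. *LSS* fell by 2.66 ± 0.25 between 6 months and 4 years (log2, adjusted p = 1.54e-05). In cattle–yaks it was 1.53 ± 0.22 higher than in yaks of 4 years (adjusted p = 0.000418), the largest rise of the 8, and it was a DTG whichever library was left out.

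*CYP51A1* (ENSBGRG00000019342) is a cytochrome P450 that removes a methyl group from lanosterol. Its FPKM was 333, 227 and 154 at 6 months, 86.7, 177 and 70.9 at 18 months, 212, 204 and 275 at 4 years, and 61.7, 34.1 and 52.9 in cattle–yaks. The libraries of 6 months and 4 years overlapped, and every cattle–yak library lay below every yak library. *CYP51A1* was 2.19 ± 0.24 lower on the log2 scale in cattle–yaks than in yaks of 4 years, a 4.58-fold difference (adjusted p = 7.93e-05). This call held with any of the 6 libraries removed and under all 9 other settings. Against 6 months the log2 fold change of cattle–yaks was −2.83 ± 0.37 (adjusted p = 0.000345). Within the 18-month group, the library rich in *TNP1* had 177 FPKM of *CYP51A1*, against 86.7 and 70.9.

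*DHCR7* (ENSBGRG00000017928) carries out a final reduction that yields cholesterol. Its FPKM was 64.8, 46.5 and 29.85 at 6 months, 20.02, 11.7 and 15.6 at 18 months, 3.68, 5.22 and 4.84 at 4 years, and 11.96, 10.2 and 16.1 in cattle–yaks. The 6-month libraries were the highest and the 4-year yak libraries the lowest, without overlap, and the other two groups overlapped between them. *DHCR7* fell by 3.96 ± 0.34 from 6 months to 4 years, a 15.6-fold difference (adjusted p = 9.36e-06) and the largest change of the 8. It was 1.49 ± 0.22 higher in cattle–yaks than in yaks of 4 years (log2, adjusted p = 0.000513). Counts of *DHCR7* were the lowest among the members, but at least 92 in each library.

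**Figure D2:**
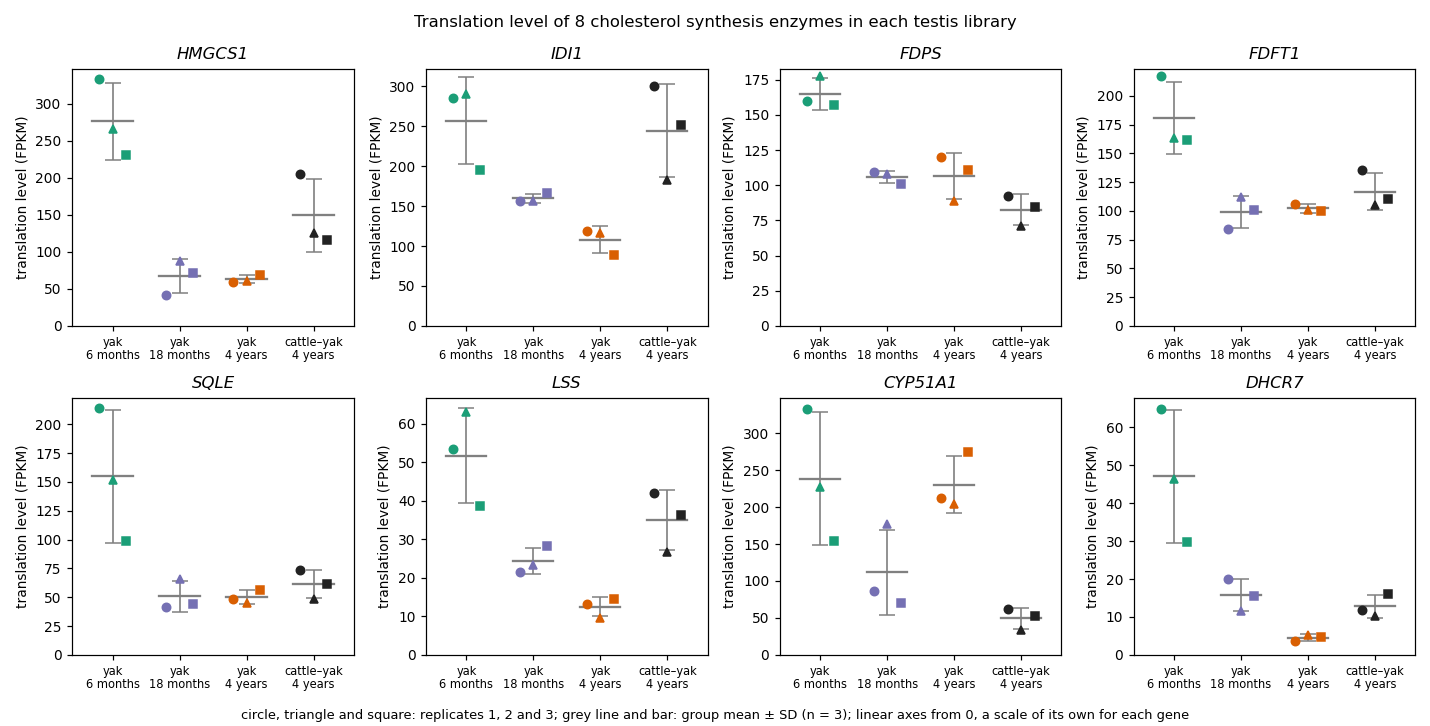
FPKM (vertical axes, linear from 0, scaled to each gene) of the 8 enzymes in each of the 12 libraries by group. Points are libraries, and grey lines and bars are group means ± SD (n = 3). The 6-month mean is the highest in each panel, and *CYP51A1* is the panel in which yaks of 4 years lie far above cattle–yaks, with means of 230.2 and 49.5 FPKM.

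The makeup of the route was compared by FPKM. The summed FPKM of the 8 enzymes was 1065 to 1661 in yaks of 6 months, 561 to 742 at 18 months, 632 to 718 at 4 years and 605 to 922 in cattle–yaks. The sums of 4-year yaks and cattle–yaks overlapped. Without *CYP51A1*, the sum of the other 7 was 427 to 470 in yaks of 4 years and 570 to 861 in cattle–yaks, which did not overlap. This sum leaves out the only member that was a lower DTG in cattle–yaks. It differed mainly through *HMGCS1*, with means of 62.9 and 149 FPKM, and *IDI1*, with 108 and 245. *FDPS* had means of 107 and 82.6. *CYP51A1* made up 33.9% ± 3.84 (SD, n = 3) of the summed FPKM in yaks of 4 years and 6.53% ± 0.823 in cattle–yaks. It was 17.0% ± 2.83 at 6 months and 17.0% ± 6.16 at 18 months. By FPKM, *CYP51A1* ranked 1st of the 8 in all 3 yak libraries of 4 years and 6th in all 3 cattle–yak libraries. Its FPKM was 18.7 ± 2.60 times that of *LSS*, the enzyme just before it in the route, in yaks of 4 years, and 1.40 ± 0.106 times in cattle–yaks. At 6 months this ratio was 4.61 ± 1.42. An exact permutation test of group means gave p = 0.1 for this share and for this ratio in cattle–yaks over yaks of 4 years. With 3 against 3 libraries no smaller p than 0.1 is possible, so these shares and ratios are given as descriptions of the libraries.

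Markers of spermatids also separated the groups. Of 10 listed markers each, 5 of elongating and 7 of round spermatids were matched by symbol. The summed FPKM of the 5 markers of elongating spermatids was 8492 to 11524 in yaks of 4 years, 2.99 to 28.0 in cattle–yaks and 0.96 to 1.44 in yaks of 6 months. At 18 months it was 2.78, 6831 and 15.0, and in the same libraries the share of *CYP51A1* was 15.4, 23.8 and 11.8%. Without replicate 2, the mean share at 18 months was 13.6%. All 5 markers and all 7 markers of round spermatids were lower in cattle–yaks than in yaks of 4 years, beside 27% lower and 17.1% higher of all genes. All of them were higher in yaks of 4 years than of 6 months, beside 31% higher and 24.7% lower. *TNP1* was listed at 0 in 1 library of 6 months, 1 of 18 months and 1 of cattle–yak. In yaks of 6 months *CYP51A1* was at 154 to 333 FPKM while the round spermatid markers summed to no more than 2.60. The part of spermatids in the level of *CYP51A1* was not tested.

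**Figure D3:**
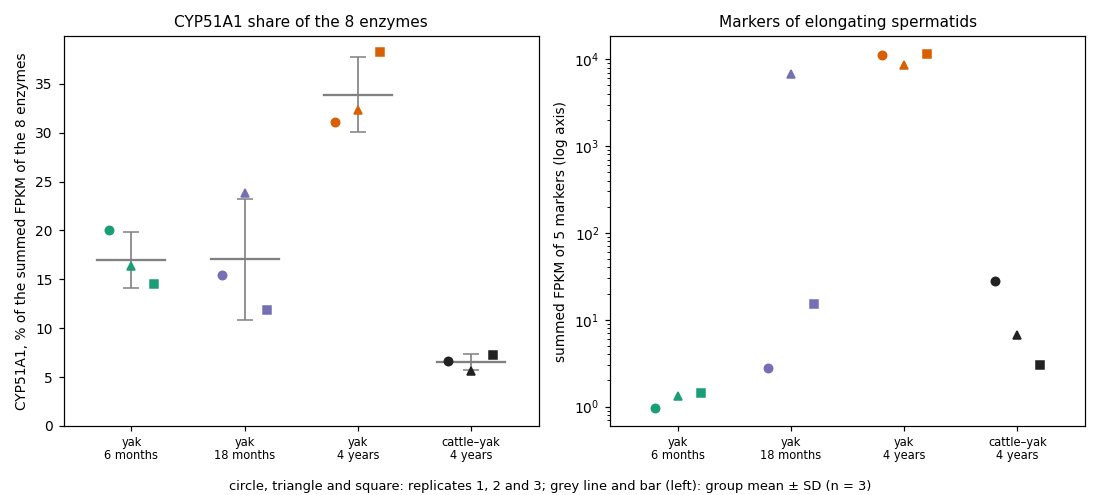
Left, share of *CYP51A1* in the summed FPKM of the 8 enzymes (%) in each library, with group means ± SD (n = 3). Right, summed FPKM of 5 markers of elongating spermatids in the same libraries (log axis). Within the 18-month yaks, the library with 6831 FPKM of these markers has the highest share, 23.8%.

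Markers of somatic cells also differed between the groups. Of all tested genes, 24.7% were lower and 31% higher at 4 years than at 6 months. In cattle–yaks over yaks of 4 years, 17.1% were higher and 27% lower. Of 10 listed markers of Leydig cells, 4 were matched by symbol, and these summed to 1733 to 2697 FPKM at 6 months, 436 to 1040 at 18 months, 110 to 241 at 4 years and 720 to 1229 in cattle–yaks. All 4 were lower at 4 years than at 6 months, and all 4 were higher in cattle–yaks than in yaks of 4 years. Of 7 Sertoli cell markers, 5 were lower and 1 was higher at 4 years than at 6 months, and 3 were higher and 0 lower in cattle–yaks than in yaks of 4 years. Their sum was 6164 to 7611 FPKM at 6 months, 2013 to 6253 at 18 months, 639 to 905 at 4 years and 1180 to 1438 in cattle–yaks. *INHA* made up most of it, with means of 6580, 3447, 569 and 870 FPKM in these groups. Between 6 months and cattle–yaks the 7 markers did not move together. The means of *SOX9*, *WT1* and *INHBB* were higher in cattle–yaks, and those of *INHA*, *GATA4*, *FSHR* and *DHH* were lower. Of 6 fibroblast markers, 6 were lower at 4 years than at 6 months and 5 were higher in cattle–yaks. They summed to 2476 to 2619, 380 to 883, 129 to 169 and 397 to 660 FPKM in the order of the groups above. With library totals *FN1* (−0.68) was no DTG at 4 years over 6 months. In cattle–yaks over yaks of 4 years *FN1* lost its call without cattle–yak replicate 3, at 0.92. *PDGFRA* lost its call there without replicate 1 of 4-year yaks or replicate 2 of cattle–yaks, at 0.997 and 0.84. All 6 markers of peritubular myoid cells were higher in cattle–yaks than in yaks of 4 years, with 1313 to 2009 against 363 to 413 FPKM. At 6 months these summed to 335 to 513 FPKM, which overlapped with the 4-year yaks, and 3 of the 6 were lower at 4 years than at 6 months. With library totals *CNN1* (−0.77) and *MYL9* (−0.44) were no DTGs there and *ACTA2* (1.29) and *MYH11* (1.52) were higher. In cattle–yaks over yaks of 4 years *CNN1* lost its call without replicate 2 of 4-year yaks or replicate 2 of cattle–yaks, at 0.995 and 0.98. Other cell types did not share the rise in cattle–yaks over yaks of 4 years. Of 6 macrophage markers 0 were higher and 1 was lower, and of 6 endothelial markers 1 was higher and 1 lower, with overlapping sums in both cases. Among germ cells before the spermatid stage, 4 of 7 spermatogonia markers were higher and 0 lower, with 1471 to 1626 against 647 to 941 FPKM. Of 8 spermatocyte markers 0 were higher and 3 lower, *PIWIL1* (−4.20), *SYCP2* (−1.29) and *MEIOB* (−1.01). *SYCP2* and *MEIOB* lost their calls without replicate 1 or 3 of 4-year yaks or replicate 2 or 3 of cattle–yaks. With all 12 libraries in 1 fit, *PIWIL1* lost its call too. *HMGCS1*, *IDI1*, *LSS* and *DHCR7* were thus higher in a group in which markers of some somatic cells and of spermatogonia were also higher. The part of cell makeup in their levels was not tested.

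Seen over all 12 libraries, the levels of the members other than *CYP51A1* mostly followed each other. Pearson's r of log2 CPM was 0.611 to 0.983 for the 21 pairs without *CYP51A1*, with a median of 0.862, and 0.083 to 0.746 for its 7 pairs, with a median of 0.314. *FDFT1* and *SQLE* formed the closest pair, and *IDI1* and *CYP51A1* the loosest. *FDPS* was closer to *CYP51A1* (0.746) than to *HMGCS1* (0.678), *IDI1* (0.611) or *LSS* (0.683), but closer still to *FDFT1* (0.874) and *SQLE* (0.862). The libraries of a group share their state, so these values describe the 4 groups more than 12 independent points and carry no p. Among 9771 genes with a symbol and sufficient level, the closest to *LSS* and to *IDI1* was *NSDHL*, another enzyme of the route, with r of 0.970 and 0.967. *SC5D*, also of the route, was among the 3 nearest genes of *FDFT1* (0.957) and of *SQLE* (0.951). The nearest gene of *HMGCS1* was *SH3RF1* (0.965), that of *FDPS* was *DEGS1* (0.973), and that of *DHCR7* was *FGL1* (0.984). The 3 nearest of *CYP51A1* were *YPEL2*, *CSMD1* and *TRIM2* (0.963, 0.958 and 0.957), none of which belongs to the route. *TRIM2* had a mean of 33.3 ± 5.62 FPKM in yaks of 4 years and 5.19 ± 0.717 in cattle–yaks (SD, n = 3).

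Other enzymes of the route were examined as a list of 12, of which 10 were matched by symbol. *ACAT2* and *EBP* were not matched and were not analysed here. At 4 years, 7 of the 10 were lower than at 6 months and 1 was higher, against the 24.7% and 31% of all genes given above. The lower ones were *PMVK* (−2.03 on the log2 scale), *MVD* (−2.38), *TM7SF2* (−2.79), *MSMO1* (−2.98), *NSDHL* (−3.06), *HSD17B7* (−2.27) and *SC5D* (−2.02). The higher one was *LBR* (1.82 ± 0.19, adjusted p = 2.75e-05). LBR is a protein of the nuclear envelope that also reduces the sterol made by CYP51A1, a reaction it shares with TM7SF2. *MVK*, mevalonate kinase, and *ERG28*, a scaffold of the late enzymes, were at −0.997 and −0.56 and were no DTGs.

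In cattle–yaks compared with yaks of 4 years, 4 of the 10 were higher and 1 was lower, against 17.1% and 27% of all genes. *MVD* (2.01 ± 0.25), which makes isopentenyl diphosphate, and *NSDHL* (1.97 ± 0.28), *MSMO1* (1.58 ± 0.12) and *HSD17B7* (1.01 ± 0.23), which remove methyl groups after CYP51A1, were higher. The lower one was *LBR* (−2.02 ± 0.16). *LBR* had 204, 159 and 195 FPKM in yaks of 4 years and 45.9, 51.7 and 38.7 in cattle–yaks. At 18 months it had 31.1, 120.2 and 50.9 FPKM, highest again in the library rich in *TNP1*. *TM7SF2*, the partner of LBR in its reaction, was at 1.08 ± 0.51 (adjusted p = 0.0906). Thus *LSS*, which acts just before *CYP51A1*, and *MSMO1* and *NSDHL*, which act after LBR, were higher in cattle–yaks, while *CYP51A1* and *LBR* were lower. *HSD17B7* was close to the required fold and was called in 4 of 9 other settings, with 0.98 by DESeq2, and in 4 of the 6 fits that left out a library, with 0.89 without cattle–yak replicate 1 and 0.99 without 4-year replicate 2. Against 6 months, 6 of the 10 were lower in cattle–yaks and 0 were higher, beside 19.7% and 18.1% of all genes. With library totals 2 were called, since *PMVK*, *MSMO1*, *NSDHL* and *HSD17B7* were then at −0.87 to −0.53. In that fit 1875 of 15571 genes were lower and 4867 higher.

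**Figure D4:**
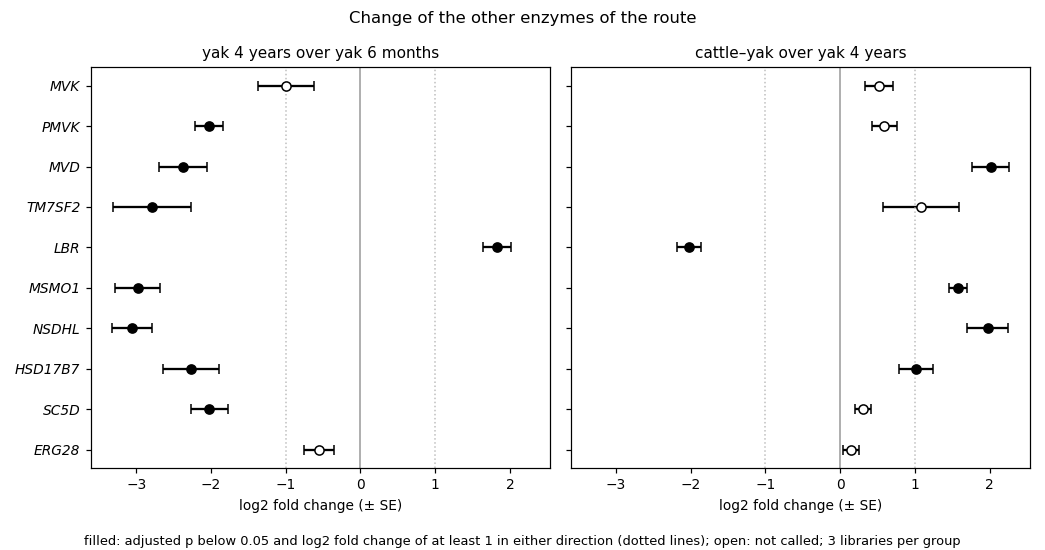
Log2 fold changes (horizontal axis, ± SE) of 10 other enzymes of the route in yaks of 4 years over 6 months (left) and in cattle–yaks over yaks of 4 years (right), with 3 libraries per group. Filled points are DTGs. *LBR* is the single higher gene on the left, at 1.82, and the lowest point on the right, at −2.02.

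At 4 years over 6 months, 24.7% of all tested genes were lower and 31% higher. Regulators of the route were lower there in 6 of 9 cases, with 0 higher. These were *SREBF2* (−2.01), which encodes SREBP2, *SREBF1* (−1.35), the proteases *MBTPS1* (−2.13) and *MBTPS2* (−2.46) that release SREBP, *INSIG1* (−2.19), which retains it, and the sterol receptor *NR1H3* (−1.66). With library totals *SREBF1* was at −0.77 and no DTG. None of the 9 was a DTG in cattle–yaks compared with yaks of 4 years by edgeR or by DESeq2. By edgeR 17.1% of all genes were higher there and 27% lower. An unadjusted p below 0.05 was found by edgeR for 5 of the 9, beside 68.9% of all tested genes, and an adjusted p below 0.05 for 4. *SREBF2* had 24.3, 26.8 and 23.5 FPKM in yaks of 4 years and 24.1, 27.2 and 29.3 in cattle–yaks, a log2 fold change of 0.12 ± 0.11 (adjusted p = 0.379). Against 6 months, 6 of the 9 were lower in cattle–yaks and 0 higher, beside 19.7% and 18.1% of all genes. With library totals 3 were called, without *SCAP* (−0.68), *INSIG1* (−0.76) and *NR1H3* (−0.68), where 1875 of 15571 genes were lower and 4867 higher. *INSIG1* also lost this call in 4 of the 6 fits that left out a library, those without replicate 1 or 3 of either group, and with the replicate block.

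Genes of cholesterol uptake, storage and efflux moved in both directions. Of 11 listed, 10 were matched by symbol and *STARD4* was not analysed here. At 4 years over 6 months, 4 of the 10 were lower and 2 higher, beside 24.7% and 31% of all genes. In cattle–yaks over yaks of 4 years, 1 was higher and 3 were lower, beside 17.1% and 27%. These counts were near the background. *SCARB1* (−3.42), *LRP1* (−1.83), *LIPA* (−1.60) and *NPC2* (−1.47) fell from 6 months to 4 years (log2 fold changes), whereas *LIPE* (3.55) and *ABCA1* (1.68) rose. *NPC2* was at −0.88 with library totals, below the required fold. In cattle–yaks compared with yaks of 4 years, *NPC2*, a carrier of cholesterol out of lysosomes, was higher (1.09), and *LIPE* (−3.93), a lipase of stored esters, and the exporters *ABCG1* (−1.80) and *ABCA1* (−1.05) were lower. *ABCG1* lost its call without replicate 1 or 2 of 4-year yaks, and *ABCA1* without replicate 3 of 4-year yaks or replicate 1 of cattle–yaks, at −0.88 and −0.85. *LIPE* had 35.3, 36.1 and 32.3 FPKM in yaks of 4 years and at most 2.61 in cattle–yaks. In the 18-month yaks it had 1.38, 18.8 and 1.47 FPKM, again highest in the library rich in *TNP1*. Against 6 months, 5 of the 10 were lower in cattle–yaks and 0 were higher, beside 19.7% and 18.1% of all genes. With library totals 2 of the 5, *NPC1* (−0.87) and *LIPA* (−0.84), were no DTGs, while *ABCA1* was a higher DTG (1.19). In that fit 1875 of 15571 genes were lower and 4867 higher.

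Branches that use the isoprene units without making sterols were covered by 8 matched genes of 10. Of these, *RABGGTA* (−3.07), *PDSS2* (−2.38) and *RABGGTB* (−1.05) were lower at 4 years than at 6 months and 0 were higher, and *RABGGTB* was at −0.47 with library totals. *RABGGTA*, a subunit of the enzyme that prenylates Rab proteins, was the single DTG in cattle–yaks compared with yaks of 4 years, with 1.47 ± 0.19. Of all genes, 24.7% were lower and 31% higher in the first comparison, and 17.1% were higher and 27% lower in the second. *FNTA* and *FNTB* were not analysed here. Against 6 months, *PDSS2* and *RABGGTA* were lower in cattle–yaks and 0 were higher, beside 19.7% and 18.1% of all genes. With library totals *PDSS1* was also higher (1.52), where 4867 of 15571 genes were higher and 1875 lower.

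Steps that turn cholesterol into steroid hormone were covered by 4 of 8 listed genes, and *CYP17A1*, *HSD3B1*, *HSD3B2* and *HSD17B3* were not analysed here. All 4 were lower at 4 years than at 6 months, beside 24.7% lower and 31% higher of all genes. All 4 were also higher in cattle–yaks than in yaks of 4 years, beside 17.1% higher and 27% lower, and DESeq2 called 3 of them there. *STAR*, which brings cholesterol into mitochondria, fell by 4.64 ± 0.45 with age (log2, adjusted p = 2.07e-05) and was 2.50 ± 0.43 higher in cattle–yaks (adjusted p = 0.00114). *CYP11A1*, which cleaves its side chain, was at −4.56 and 2.78, and its electron donors *FDX1* and *FDXR* were at −1.68 and 1.03 and at −2.77 and 1.26. In cattle–yaks over yaks of 4 years *FDX1* fell below the required fold by DESeq2 and by RLE scaling, at 0.99. It did so too without replicate 2 of 4-year yaks, at 0.96. *STAR* and *CYP11A1* are also 2 of the 4 Leydig cell markers given above.

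In all 6 comparisons the libraries of a group were few, and leaving out 1 of them changed some calls. For cattle–yak over yak of 4 years, *LSS*, *DHCR7* and *CYP51A1* kept their calls whichever of the 6 libraries was removed, and *HMGCS1* and *IDI1* kept theirs in 5 of the 6 cases. Without cattle–yak replicate 1, 3 members were called in place of 5. For 4 years over 6 months, the same 7 members were called in each of the 6 cases. For cattle–yak over 6 months, *FDFT1* and *LSS* were called in 5 of the 6 cases. They lost their call at a log2 fold change of −0.93 without 6-month replicate 1 and of −0.96 without cattle–yak replicate 2.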

How the data were processed

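Testis Ribo-seq libraries of 12 animals were grouped by their labels. Reads had been trimmed by the authors (fastp) and cleared of rRNA (Bowtie2) and further small RNAs (BLAST). The authors kept reads of 20 to 40 bases, aligned them with STAR to the yak genome BosGru 3.0 and obtained expected counts in ORFs with RSEM. The expected counts were deposited as whole numbers without normalization. The deposited FPKM divides them by gene length and library total. Fold change, p-value and FDR columns of the authors' own comparisons were not used. The 12 columns that occur in more than 1 table were identical.

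After a low-count filter (filterByExpr) and TMM scaling, edgeR's quasi-likelihood test (edgeR 4.0.16, R 4.3.3) was run on the 6 libraries compared, with Benjamini-Hochberg adjustment over all tested genes. SEs were obtained as the log2 fold change divided by the root of the F statistic. Alternatives were DESeq2 1.42.0, library size, RLE or upper quartile scaling, no filter, all 12 libraries in 1 fit, limma 3.58.1 on log2(FPKM + 1) or log2(FPKM + 0.1), a block for the replicate number, and removal of each library in turn. Correlations used log2 CPM with a prior count of 2 and summaries pandas 2.3.3. Exact permutation tests of sums, shares and ratios used scipy 1.17.1. Genes were named if they were members, if a listed gene was a DTG for cattle–yak over 4 years or 4 years over 6 months, or if among the 3 nearest genes of a member. *MVK*, *ERG28* and the marker *TNP1* were added after their values were seen. A few listed genes are not reported here and were left out of the list counts. The members, lists and tests were chosen with earlier results of these data known. Counting precision was limited by totals of 16304058 to 52616039 counts, and intervals between animals rest on 3 libraries.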

Additional observations from a re-analysis of the deposited data

How the results depend on the processing

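Of 720 recomputed log2 fold changes of the 8 enzymes, 647 kept their direction and side of the threshold, 42 became DTGs, 21 were no longer DTGs and 10 changed sign. None of the sign changes was of a DTG. The main values were between −0.23 and 0.10, except that of *CYP51A1* at 4 years over 6 months. That value was −0.65 ± 0.31 with TMM, and the log2 ratio of mean FPKM was −0.05. Limma on log2(FPKM + 1) and on log2(FPKM + 0.1) gave 0.000 and 0.000 for *FDPS*, 0.052 and 0.053 for *FDFT1* and 0.008 and 0.008 for *SQLE* at 4 years over 18 months, and 0.007 and 0.008 for *CYP51A1* at 4 years over 6 months. Library size scaling gave 0.085 for *FDFT1* at 4 years over 18 months. In cattle–yak over 18 months, *FDFT1* was at −0.048 without cattle–yak replicate 1 and up to 0.142 without another library. The number of members called at 18 months over 6 months was 0, but 7 with DESeq2 or with all libraries in 1 fit, 1 with library size scaling, upper quartile scaling or limma on log2(FPKM + 1), 2 with limma on log2(FPKM + 0.1), and 0 to 7 with a library left out. For 4 years over 18 months it was 0, but 2 with DESeq2 or all libraries, and 0 to 3 with a library left out. For cattle–yak over 18 months it was 0, but 2 with DESeq2 or all libraries, and 0 to 1 with a library left out. For cattle–yak over 4 years it was 5, and 3 to 5 with a library left out. For 4 years over 6 months it was 7, but 5 with library size scaling or either limma fit. For cattle–yak over 6 months it was 7, but 3 with library size scaling or limma on log2(FPKM + 1), 4 with limma on log2(FPKM + 0.1), and 6 to 7 with a library left out. Among all genes at 18 months over 6 months, edgeR called 3 higher and 7 lower, DESeq2 1061 and 807, and library size scaling 104 and 49. All libraries in 1 fit gave 1827 and 828 of 16906 genes, and upper quartile scaling 79 and 51. Limma gave 101 and 69 on log2(FPKM + 1) and 306 and 128 on log2(FPKM + 0.1). At 4 years over 18 months edgeR called 0 and 6, DESeq2 2092 and 2291, and all libraries in 1 fit 1121 and 2365. For cattle–yak over 18 months these were 542 and 368, 982 and 1419, and 903 and 1710. The cause of these differences was not tested.

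Replicate numbers did not pair the libraries, since the correlation of their deviations was above 0.1 for 0 of 3 pairs in 5 comparisons and for 1 of 3 in cattle–yak over 18 months. With the replicate number as a block, 3 members were called at 18 months over 6 months in place of 0, namely *HMGCS1*, *SQLE* and *DHCR7*. Among all 14874 genes this fit called 235 higher and 303 lower, in place of 3 and 7. The block called 5 for cattle–yak over 4 years, 7 for 4 years over 6 months, 7 for cattle–yak over 6 months and 0 for the other 2 comparisons. Among all genes it called 2763 higher and 4384 lower, 4851 and 3875, and 2701 and 2898 in the first 3 of these.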
